A study of Mus musculus with 38 samples.

Results

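The nucleus-encoded subunits of respiratory complex I were examined in the hippocampus of 38 mice. Members were the protein-coding genes whose mouse symbol begins with Ndufa, Ndufb, Ndufc, Ndufs or Ndufv followed by a number, without the assembly factors named Ndufaf, and 37 of the 48709 genes counted met that rule. The mice were APPPS1ΔE9 mice, a model of amyloid deposition that carries the Swedish mutant of APP and a PS1 lacking exon 9, and wild-type (WT) mice, both on a C57BL/6 background. They received anle138b, an oligomer modulator, or placebo in their chow, and RNA of whole hippocampal tissue was sequenced at 6 months of age, when treatment had begun before plaques formed (pre-plaque group), or at 10 months, when it had begun after plaque onset (post-plaque group). At 6 months each of the 4 combinations of genotype and chow held 4 mice. At 10 months there were 5 WT mice on placebo, 5 WT mice on anle138b, 5 APPPS1ΔE9 mice on placebo and 7 APPPS1ΔE9 mice on anle138b. The labels do not state the promoter of the transgenes, and reads of the transgene fall on App.

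Complex I, NADH:ubiquinone oxidoreductase, is the largest enzyme of the respiratory chain. It passes electrons from NADH through FMN and a row of iron-sulfur clusters to ubiquinone and pumps protons across the inner mitochondrial membrane. Its core subunits are split between the nucleus and mitochondrial DNA, and many accessory subunits, all encoded in the nucleus, surround them. The enzyme is built from modules: the N module takes electrons from NADH, the Q module hands them to ubiquinone, and the proximal and distal membrane arms hold the proton pumps. Neurons draw much of their ATP from oxidative phosphorylation, and loss of single subunits causes encephalopathy in children and in mice.

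The members lie on 15 chromosomes, and Ndufa1 and Ndufb11 are X-linked. Of the 37 genes, 10 belong to the N module, 6 to the Q module, 9 to the proximal and 10 to the distal membrane arm. Ndufa4 and Ndufa4l2 carry a complex I name only: Ndufa4 protein is held to belong to complex IV, and Ndufa4l2 is its hypoxia-induced paralogue. RefSeq windows of 300 bases, 250 before the transcription start and the 50 bases from the start on (build GRCm38.p6), were at hand for 32 members. They were searched on both strands for the letters of 4 promoter motifs that do not contain one another. AAGATGGCG, the core of the motif of YY1, a factor known to act at nuclear genes for mitochondrial proteins, was present in 5 of the 32 members (15.6%). By window it was in 5 of the 34 windows of members and in 1.40% of all 32851 windows. Here and below, percentages of members are per gene and those of all windows are per window. In each of the 5 members it lay downstream of the start, on the strand of the gene, and its first base was 22 to 35 bases from the start. The letters contain ATG, and whether this is the start codon of these genes was not examined. The like place and strand may thus be those of the start codon, and the share of all windows was not limited to windows that hold one. The 30 bases around it are shown because 5 members share these letters at a like place; capitals mark the match.
Ndufs4 (chr13:114388045-114388074, minus strand): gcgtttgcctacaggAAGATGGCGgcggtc
Ndufs6 (chr13:73328433-73328462, minus strand): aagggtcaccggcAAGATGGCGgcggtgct
Ndufa9 (chr6:126849096-126849125, minus strand): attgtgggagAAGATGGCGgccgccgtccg
Ndufc1 (chr3:51408914-51408943, minus strand): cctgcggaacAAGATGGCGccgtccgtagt
Ndufs7 (chr10:80249463-80249492, plus strand): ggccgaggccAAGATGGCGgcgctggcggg

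GCGCATGCG, the core of the palindrome bound by NRF1, a regulator of respiratory chain genes, was found in 2 members (6.25%, against 1.75% of all windows). In Ndufa11 it matched on both strands, overlapping by all but 1 base, 60 bases before the start, and in Ndufa8, a proximal arm subunit, on the other strand just before the start. The 250 bases before the start of Ndufa11 and 30 bases of Ndufa8 are given with the matches in capitals.
Ndufa8 (chr2:36049328-36049357, minus strand): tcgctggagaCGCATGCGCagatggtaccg
Ndufa11 (chr17:56717512-56717761, plus strand): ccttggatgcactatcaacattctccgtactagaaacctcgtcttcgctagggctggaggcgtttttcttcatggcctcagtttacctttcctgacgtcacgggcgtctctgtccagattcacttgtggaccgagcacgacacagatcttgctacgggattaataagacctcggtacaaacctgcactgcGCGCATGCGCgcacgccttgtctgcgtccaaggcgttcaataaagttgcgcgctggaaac

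CCGGAAGT, the site of the ETS factor GABPA, was found in Ndufs3 alone (3.12%, against 3.89% of all windows), and TATAAA in Ndufa3, Ndufa7, Ndufb7 and Ndufs7 (12.5%, against 13.6%). A match is a description of the letters and not of a bound site.

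Total counts ranged from 15847985 to 31895808 per library. App, which carries the transgene reads, separated the genotypes in every mouse: it reached 1506 to 1809 CPM (read counts scaled to the library size) in the 18 WT mice and 3228 to 4318 CPM in the 20 APPPS1ΔE9 mice. The 4 WT placebo libraries of 6 months, whose genotype label conflicts with their titles, had 1624 to 1796 CPM and lay with the WT mice. The study's methods describe male mice, but 12 of the 38 libraries lacked Y-linked transcripts (at most 1.87 CPM for 4 genes summed) and held at least 1170 CPM of Xist, while the other 26 held 172 to 399 CPM of the Y-linked genes and at most 5.39 CPM of Xist. This split fell unevenly over the groups: Y-linked transcripts were present in all 8 APPPS1ΔE9 mice of 6 months, in 1 of 4 WT mice on placebo and in 2 of 4 WT mice on anle138b. At 10 months they were present in 5 of 5 and 6 of 7 APPPS1ΔE9 mice and in 2 of 5 WT mice on either chow. The sequencing lane also followed the groups, since all 6-month WT placebo libraries ran on lane 4, all APPPS1ΔE9 placebo libraries on lane 5 and all APPPS1ΔE9 anle138b libraries on lane 6. At 10 months 4 WT placebo libraries ran on lane 3 and all other WT libraries on lane 4. All APPPS1ΔE9 placebo libraries of that age ran on lane 5, and 6 of 7 APPPS1ΔE9 anle138b libraries on lane 6, the other on lane 5. Lane and genotype thus cannot be told apart at 10 months, and lane and chow largely coincided. The same holds for genotype at 6 months. WT and APPPS1ΔE9 mice on the same chow shared no lane, as the WT anle138b libraries of that age ran on lanes 4 and 5. Neuronal markers (Rbfox3, Snap25, Syt1, Map2 and Nefl) summed to 5263 to 7001 CPM in all libraries, whereas 5 choroid plexus markers varied from 32.2 to 7941 CPM. The sum of 5 oligodendrocyte markers varied too, from 2243 to 7174 CPM, both in 10-month WT mice. Pituitary markers (Prl and Gh) reached 446 CPM in 10-month WT placebo replicate 1 and 309 CPM in 6-month WT anle138b replicate 1.

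All 37 members were detected in every mouse, with at least 19 reads, and passed the filter on low counts in every comparison. Per kb of annotated exon, Ndufb9, a distal arm subunit, had the highest mean level (149 CPM per kb), followed by Ndufa4 (145), Ndufa1 (132) and Ndufa2 (109.7). The lowest were Ndufb2 (4.78 CPM per kb), Ndufb4 (2.84) and Ndufa4l2 (1.48). Without Ndufa4 and Ndufa4l2, which carry a complex I name only, the range still ran from 2.84 CPM per kb (Ndufb4) to 149 (Ndufb9). The order depended on the length used. Per kb of the median coding transcript, Ndufa4 led with 435 CPM per kb, followed by Ndufs1 (235), which carries several of the iron-sulfur clusters and has 8086 bases of annotated exon, while Ndufb4 (5.60) and Ndufa4l2 (1.74) again came last. Genes with copies can lose reads to them: pseudogenes named Ndufa11b, Ndufb4c and Ndufs6b exist, so that the levels of Ndufa11, Ndufb4 and Ndufs6 are uncertain. Exons of 16 members share bases with another gene, in 2 of them more than 20%: 39% of Ndufb6 with Smim27 and 30% of Ndufa13 with Tssk6, each on the other strand, and the strandedness of the counting is not given.

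**Figure D1:**
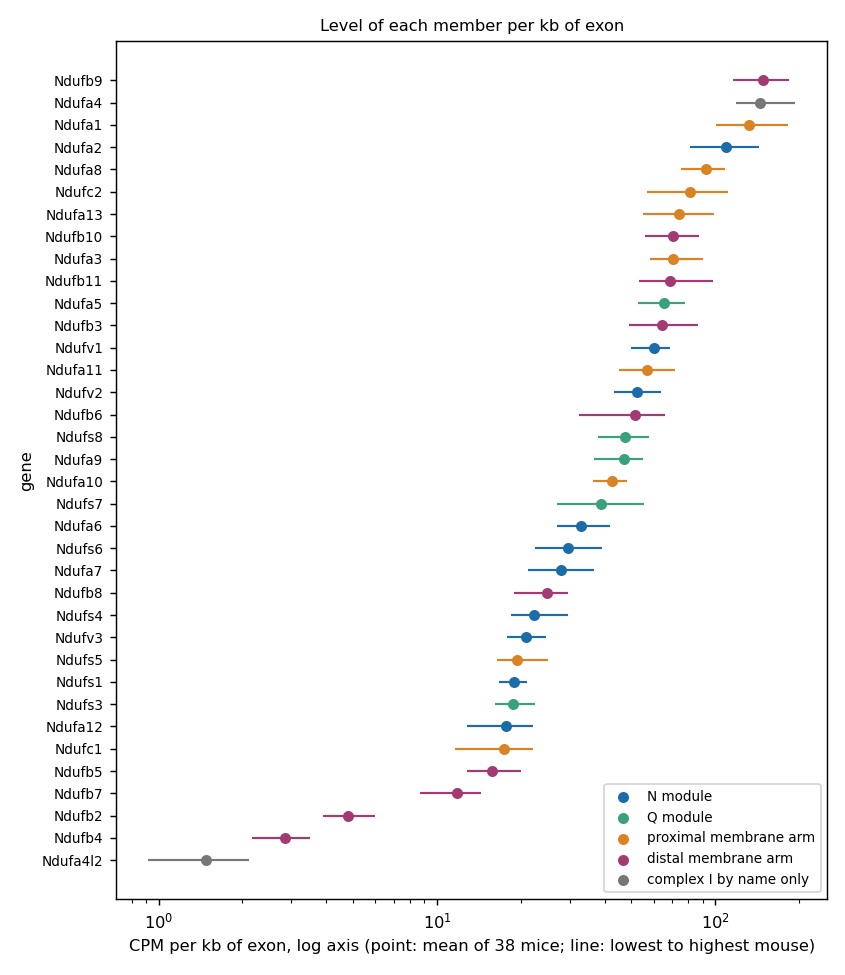
Mean level of 36 of the 37 members in CPM per kb of annotated exon (log axis), with a line from the lowest to the highest of the 38 mice and the colour giving the module. Ndufb9 and Ndufa4 stand at the top near 149 and 145, and Ndufb2, Ndufb4 and Ndufa4l2 stand apart at the bottom.

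The members tended to move together between mice of 1 group. After the group means were taken away, each of the 37 members correlated above 0 with the mean of the others over the 38 mice (median r = 0.60). The first component held 41.3% of the members' variance and 25.3% of that over all 18232 genes, but sets of such unlike size cannot be compared by this share. Other sets of 37 genes were not examined, so moving together was not shown to be particular to the members. Ndufs8, a Q module core subunit, followed the others most closely (r = 0.86), and Ndufs4, an accessory subunit of the N module whose loss causes Leigh syndrome, least (r = 0.12). These are descriptions over libraries that share depth, tissue composition and lane effects.

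The mean log2 CPM of the 37 members was listed for each mouse. At 6 months it was 6.03, 6.05, 5.95 and 5.99 in the 4 WT mice on placebo and 5.88, 5.76, 5.90 and 5.92 in the 4 APPPS1ΔE9 mice on placebo, so that these groups did not overlap. It was 6.01, 6.02, 6.04 and 5.96 in the APPPS1ΔE9 mice on anle138b, all above the APPPS1ΔE9 placebo mice and overlapping with the WT placebo mice. The WT mice on anle138b had 5.92, 5.91, 5.98 and 5.99 and overlapped with both WT placebo and APPPS1ΔE9 mice. At 10 months the 4 groups overlapped with each other, with means of 5.67 ± 0.044 (SD, n = 5) in WT placebo, 5.71 ± 0.08 (n = 5) in WT anle138b, 5.73 ± 0.10 (n = 5) in APPPS1ΔE9 placebo and 5.64 ± 0.087 (n = 7) in APPPS1ΔE9 anle138b mice. All of these lay below the 6-month means of 5.87 to 6.01, but the ages were separate cohorts, and age and cohort cannot be told apart.

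**Figure D2:**
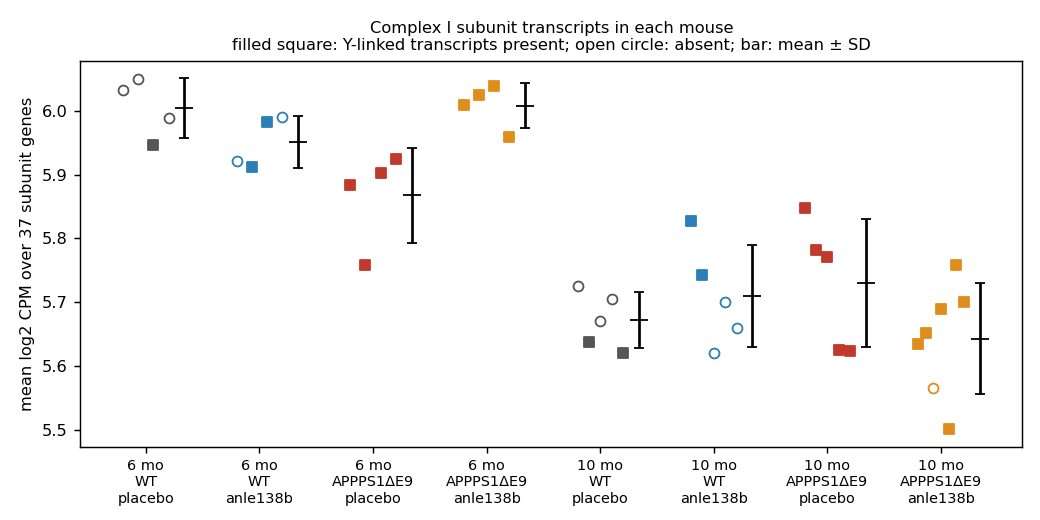
Mean log2 CPM over the 37 members (vertical axis) for each mouse of the 8 groups, with the group mean ± SD beside the points; squares are mice with Y-linked transcripts and open circles mice without. The 4 APPPS1ΔE9 placebo mice of 6 months (5.76 to 5.92) lie below all 4 WT placebo mice (5.95 to 6.05), and the 10-month groups overlap.

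The first comparison asked how APPPS1ΔE9 mice on placebo differed from WT mice on placebo in the pre-plaque group. Most members had lower values in the APPPS1ΔE9 mice, but none passed an adjusted p of 0.1 in edgeR's quasi-likelihood test over 16774 genes, where 0.0715% of all genes passed, all of them higher (smallest adjusted p of a member = 0.31). DESeq2 passed 2 members, Ndufs4 and Ndufa2, among 139 genes in all, and edgeR without the filter on low counts passed Ndufs4 and Ndufa4 among 110 genes, whereas the filtered edgeR fit passed 12 genes. The log2 fold change was below 0 for 33 of the 37 members, against 49.2% of all genes, with a median of −0.15 for the members and 0.0023 for all genes. At an unadjusted p under 0.05, 18 members (48.6%) were lower and 0 were higher, against a background of 5.86% lower and 5.22% higher. The values of 11 members did not overlap between the groups, all lower in the APPPS1ΔE9 mice, against a background of 3.48%. In bulk tissue, fewer cells of a type and less RNA per cell cannot be told apart.

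In the N module 9 of 10 members had lower values, 6 of them at an unadjusted p under 0.05. Ndufs4 had 70.1, 79.9, 69.5 and 74.8 CPM in the WT mice and 63.9, 52.02, 60.9 and 64.9 CPM in the APPPS1ΔE9 mice. The groups did not overlap, and the log2 fold change was −0.28 ± 0.075 (SE; edgeR adjusted p = 0.31). Ndufs6, a zinc-binding accessory subunit, had 35.3, 34.6, 30.7 and 31.6 CPM against 28.4, 24.4, 25.1 and 30.4 CPM, again without overlap, though the highest APPPS1ΔE9 mouse nearly met the lowest WT mouse (log2 fold change −0.29 ± 0.081). Ndufa2, a small accessory subunit with a thioredoxin-like fold, had 73.7, 78.8, 73.7 and 76.2 CPM against 63.4, 58.3, 65.9 and 70.1 CPM (−0.23 ± 0.063), a clear gap between the groups. Ndufv3, a small subunit beside the flavin site, had 75.2 ± 1.6 CPM in WT and 67.7 ± 3.0 CPM in APPPS1ΔE9 mice (SD, n = 4 each; −0.15 ± 0.051). Ndufv1, which binds NADH and FMN and so starts the electron path, did not share this pattern: it had 171, 161, 166 and 161 CPM in WT and 164, 173, 164 and 176 CPM in APPPS1ΔE9 mice (0.039 ± 0.05).

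In the Q module 5 of 6 members had lower values, but only Ndufs8 reached an unadjusted p under 0.05. The core subunits Ndufs8 (−0.17 ± 0.067), which holds iron-sulfur clusters on the path to ubiquinone, and Ndufs3 (−0.11 ± 0.064) both had lower fitted values, and the groups overlapped for both. Ndufs7, the core subunit with the last iron-sulfur cluster before ubiquinone, had 88.5, 71.9, 71.03 and 68.4 CPM against 68.2, 74.3, 73.8 and 84.3 CPM and a fold change near 0 (0.0046 ± 0.087) whose sign turned under other settings. Of the N module core subunits, Ndufv2 had 127 ± 8.9 against 113 ± 11 CPM (−0.17 ± 0.074), and Ndufs1 had 165 ± 4.6 against 157 ± 9.3 CPM (−0.067 ± 0.056), within the spread of the mice.

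The membrane arms showed the pattern with few exceptions, in 8 of 9 proximal and 10 of 10 distal members. Ndufa1, an X-linked subunit needed to build the proximal arm, had 71.5, 76.6, 68.6 and 64.04 CPM in WT and 65.2, 53.8, 58.9 and 60.4 CPM in APPPS1ΔE9 mice, overlapping by 1 mouse (−0.24 ± 0.069). Ndufc2 (−0.23 ± 0.079) and Ndufa13 (−0.18 ± 0.069), known also as GRIM-19, overlapped as well, whereas Ndufa11 did not: it had 72.4, 72.3, 76.4 and 71.4 CPM against 67.7, 62.8, 61.2 and 68.1 CPM (−0.17 ± 0.055). Ndufa10 was the 1 proximal member with a higher value (0.066 ± 0.06). In the distal arm, Ndufb9 had 178, 190, 172 and 187 CPM against 157, 143, 166 and 169 CPM (−0.20 ± 0.062), and Ndufb7 had 57.3 to 65.3 CPM against 52.2 to 55.6 CPM (−0.17 ± 0.057), both without overlap. Ndufb11, the other X-linked member, spread from 65.0 to 89.1 CPM in WT mice alone and overlapped (−0.20 ± 0.11). Ndufa4, the complex IV protein by its product, had 226, 267, 226 and 238 CPM against 214, 178, 206 and 213 CPM (−0.24 ± 0.073) and went the way of the members, while Ndufa4l2, at 24 to 51 reads, had a fold change near 0 (0.0026 ± 0.20).

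**Figure D3:**
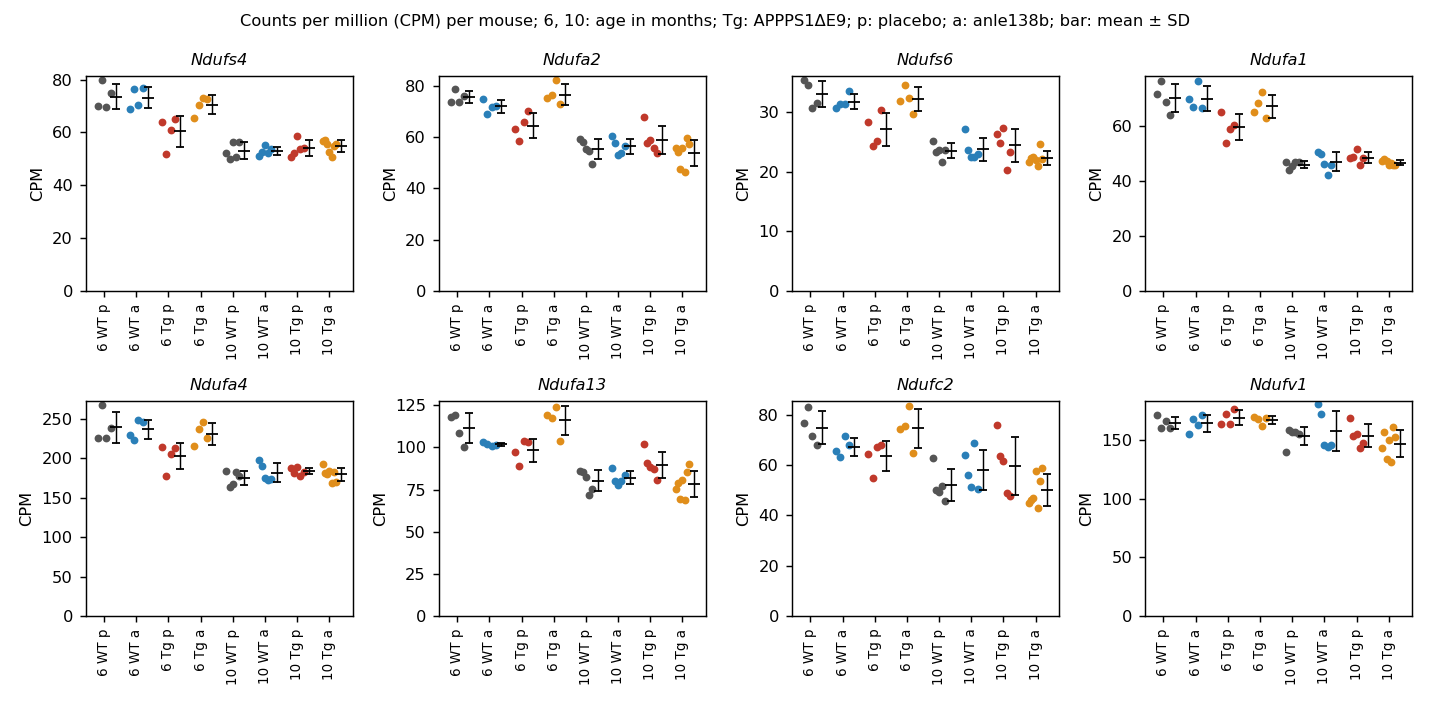
CPM of 8 members in each mouse (vertical axis from 0), by age, genotype and chow, with mean ± SD. At 6 months the APPPS1ΔE9 placebo mice hold the lowest means of Ndufs4, Ndufa2, Ndufs6, Ndufa1, Ndufa4, Ndufa13 and Ndufc2, while Ndufv1 overlaps in all 6-month groups.

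Other genes of oxidative phosphorylation had lower values in the same comparison, so the shift was not shown to be particular to complex I. Of the 7 mitochondrially encoded complex I genes, 5 passed the filter, and all 5 were lower at an unadjusted p under 0.05: mt-Nd1 (−0.22 ± 0.092), mt-Nd2 (−0.26 ± 0.09), mt-Nd4 (−0.22 ± 0.087), mt-Nd5 (−0.20 ± 0.084) and mt-Nd6 (−0.21 ± 0.084), none past an adjusted p of 0.1. Lower values were seen for 9 of 10 complex IV genes (median −0.19), 16 of 17 ATP synthase genes (−0.16), 8 of 9 complex III genes (−0.14) and 4 of 4 complex II genes (−0.12). Of the assembly factors, which help to build complex I without staying in it, 15 of 16 had lower values (−0.097), 1 of them at an unadjusted p under 0.05 and none past an adjusted p of 0.1.

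Several measures moved with this difference. For the fits with other settings, here and below, the share of all genes at an unadjusted p under 0.05 was not computed. Counts of members at that level in those fits thus have no background beside them. With Y-linked expression as a covariate the median of the members was −0.11 and 2 members were lower at an unadjusted p under 0.05. Among mice with Y-linked transcripts, 4 APPPS1ΔE9 against 1 WT, the median was −0.089 with 1 member at that level. The 2 WT anle138b mice run on lane 5 had mean log2 CPM of 5.98 and 5.99, above the 5.91 and 5.92 of the 2 on lane 4, and with these lane 5 WT mice as the comparison for the APPPS1ΔE9 placebo mice, which then also differed in chow, the median was −0.11, with 10 members lower at an unadjusted p under 0.05. All 5 choroid plexus markers had lower fitted values in the APPPS1ΔE9 placebo mice (median −1.26), and their sum was 3953, 7662, 6205 and 187 CPM in the WT and 6648, 63.99, 717 and 185 CPM in the APPPS1ΔE9 mice; all 5 were detected and tested. With that sum as a covariate, a choice made after seeing the data, the members' median was −0.13, and 35 of 37 were lower. At an unadjusted p under 0.05, 11 were lower, against 18 in the fit without it. Without APPPS1ΔE9 placebo replicate 2, which had the lowest mean level and the lowest choroid plexus sum, the median was −0.11, with 11 members lower at an unadjusted p under 0.05, and without WT placebo replicate 2 it was −0.13, also with 11. Of the other cell type markers, 5 of 5 for oligodendrocytes (median −0.14) and 4 of 5 for astrocytes (−0.17) had lower fitted values, while 4 of 5 for microglia (0.27) and 5 of 5 for neurons (0.037) had higher ones. A separate list for hippocampal neurons was mixed, with 3 of 5 lower and 2 higher (−0.018), and 2 of 3 endothelial markers had higher values (0.15). The part of these measures in the result was not tested.

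Exon length moved with it too. Among all genes tested, the median log2 fold change went from −0.066 in the shortest of 10 bins of exon length (up to 1510 bases) to 0.055 in the longest. Of the members, 19 lay in the shortest bin, with a median of −0.18, and 8 in the next, with −0.11 against −0.054 for all genes there. The members thus had lower values than genes of like length in these 2 bins. With offsets that take out each library's trend along exon length and GC content, the members' median was −0.089, and 13 were lower at an unadjusted p under 0.05.

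**Figure D4:**
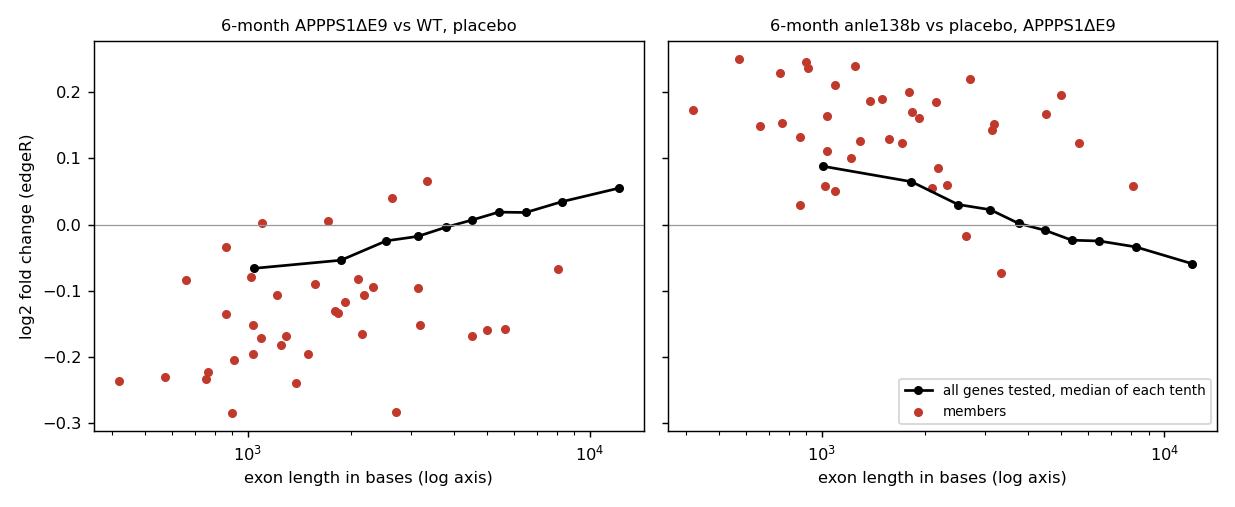
Log2 fold change of the members (red points) against exon length in bases (log axis) for 2 comparisons at 6 months, with the median over all genes tested in each of 10 bins of exon length (black line). The line runs from −0.066 to 0.055 on the left and from 0.088 to −0.059 on the right, and most members lie beyond it, below on the left and above on the right.

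The second comparison asked how APPPS1ΔE9 mice on anle138b differed from those on placebo in the pre-plaque group. It shares the 4 placebo-treated APPPS1ΔE9 mice with the first, so its opposite direction is not independent of it. Of the 37 members 35 had higher values with anle138b, against 49.4% of all 17009 genes tested, with a median of 0.15 against −0.0022 for all genes. None passed an adjusted p of 0.1 in edgeR (smallest 0.28), where 0.0529% of all genes passed, 0.0235% as higher and 0.0294% as lower. DESeq2 passed Ndufa2, Ndufa13 and Ndufa11 among 204 genes in all, and edgeR without the filter passed Ndufa2 and Ndufa13 among 120 genes, whereas the filtered edgeR fit passed 9 genes. At an unadjusted p under 0.05, 19 members were higher and 0 lower, against 5.50% of all genes higher and 7.63% lower. The values of 11 members did not overlap, all higher with anle138b, against a background of 2.74%.

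Ndufa2 had 63.4, 58.3, 65.9 and 70.1 CPM on placebo and 75.2, 76.4, 82.1 and 72.8 CPM on anle138b, the widest fitted difference among the members (0.25 ± 0.062; edgeR adjusted p = 0.28). Ndufa13 had 97.3, 89.0, 103.7 and 103.2 CPM against 119, 117, 124 and 103.8 CPM, so that the groups nearly met (0.24 ± 0.066). Ndufa11 had 67.7, 62.8, 61.2 and 68.1 CPM against 78.4, 75.7, 77.9 and 68.9 CPM (0.21 ± 0.057). All 3 thus lay above the placebo mice, for Ndufa13 and Ndufa11 by a narrow margin at anle138b replicate 4. Ndufs4 had 60.4 ± 5.9 on placebo and 70.4 ± 3.6 CPM on anle138b (SD, n = 4 each; 0.22 ± 0.07). Ndufv1 (−0.017 ± 0.045) and Ndufa10 (−0.073 ± 0.051) were the 2 members with lower values. By module, values were higher for 9 of 10 N module, 6 of 6 Q module, 8 of 9 proximal and 10 of 10 distal members, and at an unadjusted p under 0.05 for 7, 0, 5 and 6 of them.

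The same measures moved here. All 8 mice had Y-linked transcripts, so this comparison does not mix mice with and without them, but their level was uneven. It was 175, 172, 365 and 336 CPM on placebo and 178, 173, 194 and 190 CPM on anle138b. With that level as a covariate the median was 0.21, and Ndufa2 passed (edgeR adjusted p = 0.084) among 94 genes in all. The choroid plexus sum was 6787, 6010, 7453 and 168 CPM with anle138b, all 5 markers had higher fitted values (median 1.18), and with that sum as a covariate the members' median was 0.12, with 9 higher at an unadjusted p under 0.05. Length offsets gave 0.088, and 18 members in the shortest bin of exon length had a median of 0.16 against 0.088 for all genes there. Without APPPS1ΔE9 anle138b replicate 3 the number of members at an unadjusted p under 0.05 was 11. Lane and treatment cannot be told apart in this comparison. Higher values were also seen for all 5 mitochondrially encoded complex I genes tested (median 0.25), 9 of 9 complex III (0.16), 10 of 10 complex IV (0.15), 15 of 17 ATP synthase (0.14) and 4 of 4 complex II genes (0.14), as well as 15 of 16 assembly factors (0.068).

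The genotypes were also compared in the 6-month mice on anle138b. Of the members 28 had higher values in APPPS1ΔE9 than in WT mice (48.2% of all genes did, and 51.8% had lower ones), with a median of 0.036, and 4 were higher at an unadjusted p under 0.05, against 4.02% of all genes. None passed an adjusted p of 0.1 in edgeR (smallest 0.77; 0.047% of all genes passed, 0.0352% as higher and 0.0117% as lower) or in DESeq2. Ndufa13 was the 1 member without overlap, at 101 to 103 CPM in WT and 103.8 to 124 CPM in APPPS1ΔE9 mice (0.19 ± 0.056), against 1.90% of all genes that were higher and 1.43% that were lower without overlap. Ndufs7 (0.27 ± 0.089) and Ndufb10 (0.14 ± 0.054), a distal arm subunit, had the next smallest p-values. When APPPS1ΔE9 anle138b replicate 4 was left out, Ndufa13 passed (0.24 ± 0.043, adjusted p = 0.083), and it was the 1 member among 44 genes to do so in that fit, where 10 members in place of 4 were higher at an unadjusted p under 0.05. Without APPPS1ΔE9 anle138b replicate 1 the median was 0.067, and without WT anle138b replicate 3 or 4 it was 0.055 or 0.059.

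In WT mice of 6 months, 32 members had lower values on anle138b than on placebo, by a median of −0.048 and against 49.5% of all genes. At an unadjusted p under 0.05, 3 were lower, namely Ndufb10 (−0.14 ± 0.059), Ndufc2 (−0.15 ± 0.067) and Ndufa13 (−0.13 ± 0.058), against 1.15% of all genes, and 0 were higher, against 0.698% (1.85% in either direction). No member was without overlap, where 0.871% of all genes were lower without it. None of the members and 0% of all genes passed an adjusted p of 0.1 in edgeR or in DESeq2, and the smallest edgeR adjusted p of a member was 0.9998. Leaving out 1 mouse gave 0 to 4 lower members at an unadjusted p under 0.05, and the median was −0.030 without WT anle138b replicate 1. Within lane 4, with 4 placebo and 2 anle138b mice, the median was −0.078. In the mice with Y-linked transcripts, 1 on placebo and 2 on anle138b, it was 0.001.

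The difference between these comparisons was tested as the interaction of genotype and treatment at 6 months. The interaction was above 0 for 35 of 37 members (49.6% of all genes), with a median of 0.21, and 20 members had an unadjusted p under 0.05, all above 0, against 4.59% of all genes. None passed an adjusted p of 0.1, and neither did any of the 17404 genes tested (0%), in edgeR; DESeq2 passed Ndufa13 and Ndufa2 among 22 genes in all. The smallest p-values belonged to Ndufa2 (0.33 ± 0.078), Ndufa13 (0.38 ± 0.092) and Ndufa11 (0.31 ± 0.082), with edgeR adjusted p-values of 0.52, 0.52 and 0.53. In edgeR the effect of anle138b on the members was thus not shown to differ between the genotypes. DESeq2 called a difference for Ndufa13 and Ndufa2 alone among the members.

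**Figure D5:**
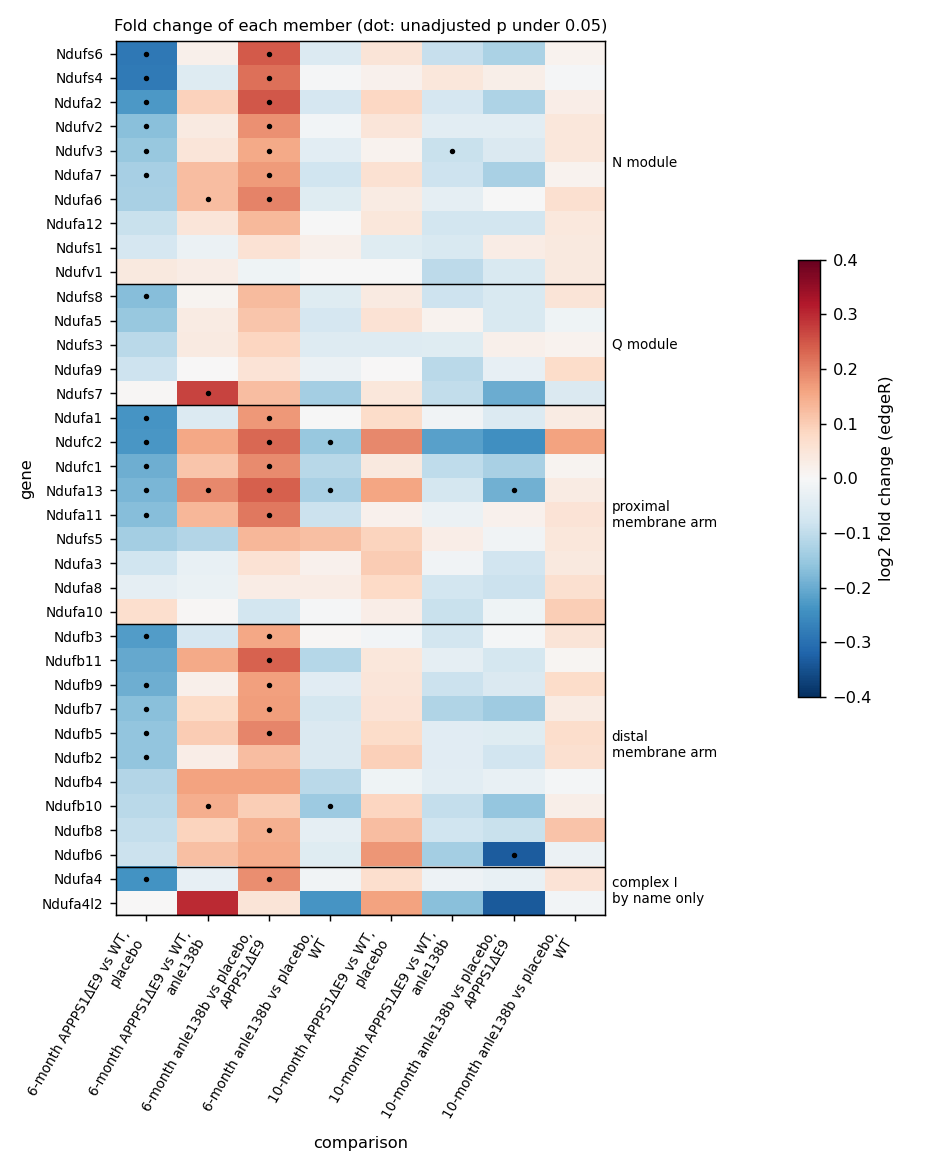
Log2 fold change of 36 of the 37 members (rows, by module) in the 8 pairwise comparisons (columns); blue is lower and red higher in the first-named group, and a dot marks an unadjusted p under 0.05. The first column is almost wholly blue (33 of all 37 members lower), the third almost wholly red (35 of all 37 higher), and they share the APPPS1ΔE9 placebo mice.

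The same comparisons were made at 10 months, in the post-plaque group. Between APPPS1ΔE9 and WT mice on placebo 32 members had higher values (49.0% of all genes did), by a median of 0.049. None reached an unadjusted p under 0.05 (4.10% of all genes did, 2.59% as higher and 1.51% as lower). No member was without overlap (1.08% of all genes were higher and 0.318% lower without it), and none passed an adjusted p of 0.1 in edgeR, where 0.324% of all genes passed, all higher, or in DESeq2, which passed more genes than the 55 of edgeR. The smallest p-values belonged to Ndufa13 (0.16 ± 0.072), Ndufb8, a distal arm subunit (0.12 ± 0.064), and Ndufa3, a proximal arm subunit (0.10 ± 0.054). Ndufs4, which stood apart at 6 months, had 49.9 to 56.6 CPM in WT and 50.9 to 58.7 CPM in APPPS1ΔE9 mice, and the groups overlapped almost fully. The members' median was 0.094 among mice with Y-linked transcripts and 0.081 with their level as a covariate, 0.026 without APPPS1ΔE9 placebo replicate 1 and 0.074 without APPPS1ΔE9 placebo replicate 5. All 5 choroid plexus markers (median −0.71) and all 5 oligodendrocyte markers (−0.12) had lower fitted values in this comparison, and all 5 microglial markers higher ones (0.37); their part in the result was not tested. The change of the genotype effect from 6 to 10 months was above 0 for 35 members (48.6% of all genes), with a median of 0.21, and 16 had an unadjusted p under 0.05, against 3.40% of all genes, but none of the members and 0% of all genes passed an adjusted p of 0.1 in edgeR, and no member did in DESeq2 (smallest edgeR adjusted p 0.63, Ndufa1 and Ndufa4). Without 6-month APPPS1ΔE9 placebo replicate 2 the count at an unadjusted p under 0.05 was 8 and the median 0.15, and with offsets for exon length and GC content the count was 10.

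On anle138b, 34 members had lower values in 10-month APPPS1ΔE9 than in WT mice (51.0% of all genes did), with a median of −0.074. Ndufv3 was the 1 member at an unadjusted p under 0.05 (−0.09 ± 0.041), against 2.17% of all genes as lower; it ranged from 60.98 to 67.8 CPM in the 5 WT mice and from 57.2 to 63.1 CPM, with a median of 59.7, in the 7 APPPS1ΔE9 mice. Ndufc2 (−0.22 ± 0.10) and Ndufs6 (−0.092 ± 0.058) followed. None passed an adjusted p of 0.1 in edgeR (smallest 0.84), where 0.723% of all genes passed, 0.0292% as lower and 0.694% as higher, or in DESeq2, where 189 genes passed. With Y-linked expression as a covariate the median was −0.11 with 9 members lower at an unadjusted p under 0.05, and among mice with Y-linked transcripts it was −0.12, also with 9. With the choroid plexus sum as a covariate it was −0.037 with 0. Without WT anle138b replicate 1 the median was −0.040 and without APPPS1ΔE9 anle138b replicate 5 it was −0.045. All 5 markers of choroid plexus (median 1.93), oligodendrocytes (0.16) and microglia (0.48) had higher fitted values in the APPPS1ΔE9 mice, and their part in the result was not tested.

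Within 10-month APPPS1ΔE9 mice, 33 members had lower values on anle138b than on placebo (48.3% of all genes did), with a median of −0.062. Ndufb6, a distal arm subunit, had 28.2 to 41.01 CPM on placebo and 21.4 to 37.3 CPM on anle138b (−0.33 ± 0.13), and Ndufa13 had 80.4 to 101.7 CPM against 69.0 to 90.2 CPM (−0.19 ± 0.076). Both overlapped, and they were the 2 members at an unadjusted p under 0.05, against 0.643% of all genes as lower. Ndufc2 came next, with 47.8 to 75.7 against 42.9 to 58.7 CPM (−0.25 ± 0.12). The median was −0.034 without APPPS1ΔE9 placebo replicate 1 and −0.039 without APPPS1ΔE9 anle138b replicate 5, which had the lowest mean level of the members (5.50) and the highest choroid plexus sum at this age (4331 CPM). All 5 markers of choroid plexus (median 2.32) and of oligodendrocytes (0.18) had higher fitted values on anle138b; their part in the result was not tested.

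In WT mice of that age 31 members had higher values on anle138b (50.2% of all genes did), with a median of 0.040; 0 reached an unadjusted p under 0.05, against 0.612% of all genes as higher, and Ndufc2 (0.16 ± 0.11), Ndufb8 (0.11 ± 0.076) and Ndufa6, an N module accessory subunit (0.064 ± 0.054), had the smallest p-values. Neither a member nor any other gene passed an adjusted p of 0.1 in these 2 comparisons (0%) in edgeR, and no member did in DESeq2; the smallest edgeR adjusted p of a member was 0.9991 in APPPS1ΔE9 mice and 1 in WT mice. Without WT anle138b replicate 1 the median in WT mice was 0.0085, and with the choroid plexus sum as a covariate it was −0.0037. When the WT comparison was limited to mice with Y-linked transcripts, 2 on each chow, the members' median was 0.15. In that edgeR fit 5550 genes passed an adjusted p of 0.1 in either direction, among them 18 members, all higher. Passing was thus common among all genes and not shown to be particular to the members. The share of all genes tested that passed as higher in that fit was not computed, so the 18 members have no like background beside them. Oligodendrocyte markers summed to 7174 and 4903 CPM in these placebo mice and to 2756 and 3719 CPM in these anle138b mice, and their part was not tested.

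The interaction of genotype and treatment at 10 months was below 0 for 35 of 37 members (49.3% of all genes), with a median of −0.11. Ndufc2 (−0.41 ± 0.17) and Ndufa13 (−0.22 ± 0.099) had an unadjusted p under 0.05, against 1.15% of all genes as lower. None of the members and 0% of all genes passed an adjusted p of 0.1 in edgeR, the smallest of a member being 0.99, and no member passed in DESeq2.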

How the data were processed

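RNA of whole hippocampus was isolated with TRIZOL and made into TruSeq mRNA libraries. The authors mapped reads to mm10 with STAR and deposited HTSeq read counts (intersection-nonempty mode) of 48709 genes for each of 38 mice, neither normalized nor filtered; 48349 have a symbol in GENCODE M21 (GRCm38). Strandedness and annotation release are not given in the sources used here. Groups came from sample titles; the 4 libraries titled as placebo-treated WT of 6 months carry a transgenic genotype label elsewhere and were used as WT. Replicates were separate mice.

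Counts were fitted in edgeR 4.0.16 (R 4.3.3): filterByExpr (minimum count 10, minimum total 15), TMM, estimateDisp, glmQLFit with robust estimation and glmQLFTest, in each pair of groups and in 3 interaction fits over 4 groups, with Benjamini-Hochberg adjustment over all genes tested and a threshold of 0.1. SEs were taken from the fold change and its F statistic. Levels are TMM-scaled CPM, with a prior count of 2 on the log2 scale. The authors used DESeq2; version 1.42.0 was run here as an alternative. The fit was tested on simulated data. The 75 pairs of mice within groups all differed beyond counting noise (chi-square at least 3.18 times its degrees of freedom).

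Named were members past the threshold in a pairwise or interaction fit, the 10 with the smallest p in the 6-month placebo genotype comparison, the 3 with the smallest p in each other pairwise comparison, nuclear core subunits, the X-linked members, Ndufa4 and Ndufa4l2, and those with the highest and lowest level per kb of exon; Ndufa8, Ndufa10, Ndufb2 and Ndufb4 were named after their values were seen. The values of 1 member are not reported here on their own, though it is in all counts and medians. Members and lists were chosen with earlier results of these data known. Motif windows came from RefSeq (GRCm38.p6); the letters for NRF1 were shortened by 1 base after the full palindrome had been searched.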

Additional observations from a re-analysis of the deposited data

Results flagged for a closer look

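A mean level over the members and 25 named members were checked in each of the 8 groups, 208 checks in all, for a mouse whose distance to its nearest neighbour was large against the range of its group, and 9 values stood out. Chance alone would mark about 1 in 20 groups. At 6 months, Ndufv2 was 97.1 CPM in APPPS1ΔE9 placebo replicate 2 and 117 to 120 CPM in the other mice of the group, and Ndufv3 was 66.3 CPM in WT anle138b replicate 2 against 74.8 to 75.4 CPM. In 10-month WT placebo replicate 1, Ndufb6 was high (40.2 CPM, others 28.8 to 30.8) and Ndufv1 low (140.2 CPM, others 155 to 159). That library had the fewest counts of all 38 (15847985). It also held 446 CPM of pituitary markers, against at most 20.8 CPM in the other mice of its group. In 10-month WT mice on anle138b, Ndufs6 was 27.2 CPM in replicate 1 (others 22.4 to 23.6) and Ndufa4l2 was 2.32 CPM in replicate 4 (others 1.47 to 1.60). Ndufs3 was 36.2 CPM in 10-month APPPS1ΔE9 placebo replicate 5 (others 38.99 to 40.04). In 10-month APPPS1ΔE9 mice on anle138b, Ndufa11 was 49.2 CPM in replicate 3 (others 54.9 to 58.2) and Ndufs6 was 24.7 CPM in replicate 6 (others 20.95 to 22.4).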

How the results depend on the processing

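No member passed an adjusted p of 0.1 in any of the 11 fits, and the exceptions among the alternatives were few. DESeq2 called 2 members in the 6-month placebo genotype comparison (Ndufs4 and Ndufa2, of 139 genes called), 3 for anle138b against placebo in 6-month APPPS1ΔE9 mice (Ndufa2, Ndufa13 and Ndufa11, of 204) and 2 in the 6-month interaction (Ndufa13 and Ndufa2, of 22). Without the filter on low counts, 2 were called in the first (Ndufs4 and Ndufa4, of 110) and 2 in the second (Ndufa2 and Ndufa13, of 120). Y-linked expression as a covariate gave 1 call (Ndufa2, of 94) in the second, with a median of 0.21. Mice with Y-linked transcripts alone gave medians of −0.089 for the 6-month placebo genotype comparison and 0.001028 for 6-month anle138b against placebo in WT mice. For that comparison at 10 months they gave a median of 0.15 and 18 calls, in a fit where calls were common among all genes. Offsets for exon length and GC content gave medians of −0.089 and 0.088 for the first and second comparisons and 0.15 for the 6-month interaction. With the choroid plexus covariate, added after seeing the data, the uncalled median of 10-month WT mice turned to −0.003694. The cause of these moves was not tested. With each mouse left out in turn, the count of calls stayed at 0, except that it ranged from 0 to 1 for the genotypes on anle138b at 6 months, and the median ranged from −0.17 to −0.11 in the first comparison and from 0.13 to 0.18 in the second. At 10 months it ranged from 0.026 to 0.074 (genotype, placebo), −0.09 to −0.040 (genotype, anle138b), −0.086 to −0.034 (treatment, APPPS1ΔE9) and 0.0085 to 0.059 (treatment, WT). In the first comparison, Ndufs7 turned to −0.001067 in 1 fit of all 4 groups of the age and −0.016 with the choroid plexus covariate, and Ndufa4l2 to −0.003898, −0.092, −0.00375 (mice with Y-linked transcripts) and −0.051 (lane 5). Leaving out 1 mouse gave −0.058 to 0.0901 for Ndufs7 and −0.13 to 0.063 for Ndufa4l2. Deviations of same-numbered mice correlated below 0 in at least 1 pair of each comparison except the genotypes on anle138b at 6 months. There the lowest r was 0.00016 and the highest 0.40. Numbers were thus not taken as pairs. With the replicate block the first comparison had a median of −0.15 and 0 calls, and Ndufa4l2 turned to −0.005349. For 10-month genotypes on anle138b the median was then −0.11, with 12 members at an unadjusted p under 0.05 in place of 1. Depth was at least 19 reads for each member, so depth limits Ndufa4l2 most.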
